A study of Drosophila melanogaster with 23 samples.

Results

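Augmin is a protein complex of dividing cells that binds the side of an existing spindle microtubule and recruits the gamma-tubulin ring complex to it, so that a further microtubule grows as a branch. In fly cells this route supplies much of the microtubule mass of the mitotic spindle, and spindles that lack augmin carry less gamma-tubulin and fewer microtubules. The subunits were named for those defects, *dgt* for dim gamma-tubulin and *msd* for mitotic spindle density. Transcripts of 3 subunits, *dgt4* (FBtr0070642, gene FBgn0026085, X chromosome), *dgt6* (FBtr0085414, FBgn0039638, chromosome arm 3R) and *msd5* (FBtr0072724, FBgn0035210, chromosome arm 3L), were examined out of 21051 transcripts on the array. They were picked out by identifier, as augmin subunits, with earlier results of these data known. All 3 are on a list of cell cycle genes that the study chose in part on these arrays. A lower signal of these transcripts in the mutant is therefore not independent evidence.

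The question was how far these transcripts differed when Myb, a transcription factor that binds the promoters of many cell cycle genes and has a single gene in flies, was missing from wing imaginal discs, the larval tissue that gives rise to the adult wing and part of the thorax. Mutant discs came from male larvae hemizygous for *Myb* MH107, an X-linked deficiency that takes out *alkB* together with the start of *Myb* and leaves no Myb function. The labels give early pupal lethality for this genotype, and its larvae were picked as the GFP-negative larvae of a stock that is kept over a GFP-marked balancer. Control discs came from male *yw* larvae, and larvae of both genotypes were in the 3rd instar. This *yw* stock is the yellow-bodied and white-eyed line into which the mutant chromosome had been outcrossed. The mutant chromosome itself also carries a *white* allele. Total RNA of whole discs was hybridized to 23 one-colour arrays (12 mutant and 11 control) from 3 biological replicates of each genotype with 3 or 4 technical arrays each. In such bulk RNA, fewer cells of a type and less RNA per cell cannot be told apart.

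Values are linear signals after robust multichip analysis (RMA), and those of a biological replicate are the mean of its technical arrays taken on the log2 scale. Signals of different transcripts come from different probes and do not share a scale, so each transcript is compared only between samples. The 6 biological replicates were compared with limma over 16637 transcripts, with Benjamini-Hochberg adjustment over all of them. A transcript was called at an adjusted p under 0.001 with a signal of at least 500 in at least 1 biological replicate. Calls at an adjusted p under 0.05 with the same minimum are given as well, and "fell" or "rose" is used for these. Array medians lay between 996 and 1060, and the number of biological replicates limits the precision.

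*Myb* itself (FBtr0074169) read 4586, 4929 and 4717 in mutant replicates 1 to 3 and 15216, 15119 and 16233 in control replicates 1 to 3. Its log2 change, mutant mean minus control mean, was -1.71 (SE 0.06, limma adjusted p = 3.54e-05), and all 12 mutant arrays lay below all 11 control arrays, as their labels give. The probes of this transcript were not placed against the deleted 5′ end. The 3 mutant replicates kept 29.6%, 31.8% and 30.4% of the control mean, so none of them stood apart in the signal of the mutated gene.

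All 3 augmin subunits read lower in the mutant than in the control, and in each of them every one of the 12 mutant arrays lay below every one of the 11 control arrays. Technical arrays of a biological replicate are not independent samples, and how many of all transcripts separate on every single array was not counted. The size of the difference was unequal. *msd5* was at 44.4% of the control level, *dgt4* at 72.6% and *dgt6* at 74.2%. Of the 3, 0 were called at an adjusted p under 0.001, a threshold at which 0.619% of all tested transcripts were called lower. At an adjusted p under 0.05 *msd5* alone fell, and 2.98% of all tested transcripts were called lower in that way. Complete separation of the biological replicates was less rare, since the mutant lay wholly below the control in 14.5% of all tested transcripts.

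*msd5* encodes a subunit of augmin that was found by its effect on spindle density. Its signal was 313, 371 and 433 in mutant replicates 1 to 3 and 810, 830 and 853 in control replicates 1 to 3. The highest mutant array read 499 and the lowest control array 762, so the genotypes were far apart on every array. On the log2 scale the means were 8.53 ± 0.23 (SD, n = 3) and 9.70 ± 0.04 (SD, n = 3). The change of -1.17 (SE 0.12, 95% CI -1.47 to -0.88, adjusted p = 0.00246) is a signal 2.25-fold lower in the mutant, with an interval of 36.1% to 54.4% of the control level. Among all tested transcripts, 201 (1.21%) had a lower change. All 12 mutant arrays read under 500 and all control arrays above it, so *msd5* met the signal minimum through the control group alone.

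*dgt6* encodes a subunit whose human relative binds the adaptor of the gamma-tubulin ring complex. Its signal was 2191, 2405 and 2868 in mutant replicates 1 to 3, against 3286, 3277 and 3431 in control replicates 1 to 3. The highest mutant array read 2915 and the lowest control array 3151, which leaves a narrow gap beside the spread of the mutant replicates. The log2 means were 11.27 ± 0.20 (SD, n = 3) and 11.70 ± 0.04 (SD, n = 3). The change was -0.43 (SE 0.11, 95% CI -0.69 to -0.17, adjusted p = 0.0654), or 62.0% to 88.8% of the control level at the ends of the interval. It missed both thresholds, and 1377 transcripts (8.28%) had a lower change.

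*dgt4* encodes another subunit of the same complex, named for its dim gamma-tubulin spindles. Mutant replicates 1 to 3 read 591, 541 and 730, and control replicates 1 to 3 read 805, 875 and 868. The gap between the genotypes was the narrowest of the 3 transcripts, with 761 on the highest mutant array and 778 on the lowest control array. The log2 means were 9.27 ± 0.22 (SD, n = 3) and 9.73 ± 0.07 (SD, n = 3). The change of -0.46 (SE 0.12, 95% CI -0.75 to -0.17, adjusted p = 0.0736) also missed both thresholds, and its interval ran from 59.4% to 88.7% of the control level. There were 1240 transcripts (7.45%) with a lower change.

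**Figure D1:**
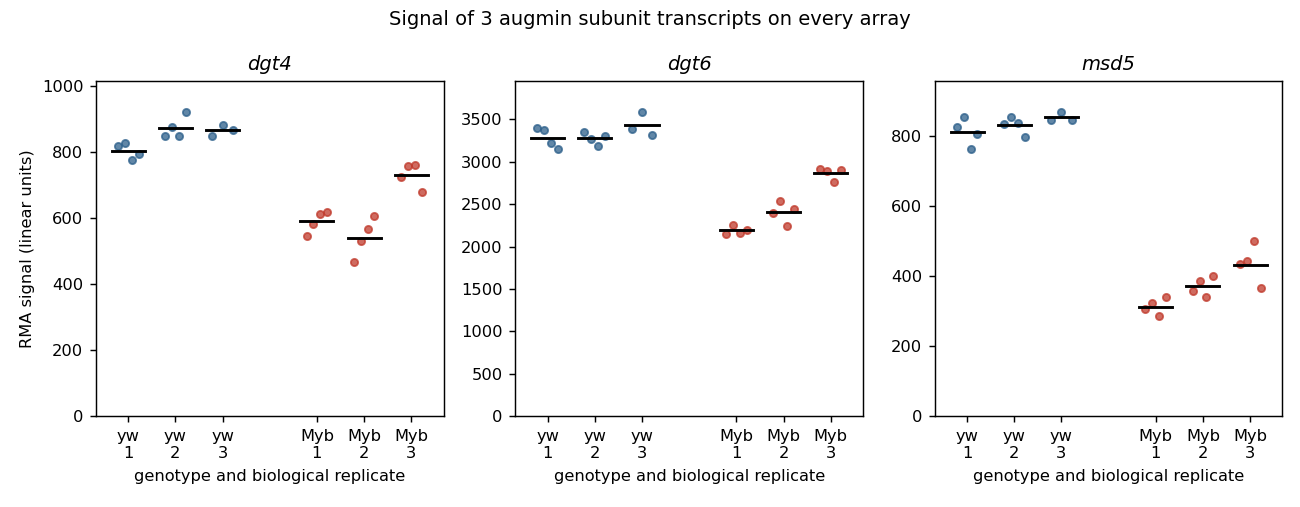
RMA signal (linear units) of *dgt4*, *dgt6* and *msd5* on each of the 23 arrays, by genotype (yw, control in blue; Myb, *Myb* mutant in red) and biological replicate, with 1 point per array and a bar at the mean of the biological replicate taken on the log2 scale. In each panel all mutant points lie below all control points, and in each panel mutant replicate 3 has the highest bar of the 3 mutant replicates.

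The mutant replicates of the 3 subunits were ordered in nearly the same way. Mutant replicate 3 read highest in *msd5*, *dgt6* and *dgt4*. The order of the replicates from high to low was 3, 2, 1 in *msd5* and in *dgt6*, and 3, 1, 2 in *dgt4*. Relative to the control mean, mutant replicates 1 to 3 kept 37.6%, 44.6% and 52.1% of the *msd5* signal. The same replicates kept 65.8%, 72.2% and 86.1% for *dgt6*, and 69.6%, 63.8% and 86.0% for *dgt4*. The controls were ordered 3, 2, 1 in *msd5*, 3, 1, 2 in *dgt6* and 2, 3, 1 in *dgt4*, over a range of 0.07 (log2) in *msd5* and *dgt6* and 0.12 in *dgt4*.

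This order is frequent in these arrays. Mutant replicate 3 was the highest of the mutant replicates in 43.6% of 9295 brighter transcripts (mean signal over the 6 replicates of at least 500), and the order 3, 2, 1 alone was seen in 31.3% of them. Among the 496 transcripts called lower at an adjusted p under 0.05, mutant replicate 1 was highest in 55.6% and mutant replicate 3 in 27.2%, and the test behind this call itself uses the spread of the replicates. The mutated gene did not follow the subunits, since its highest mutant replicate was replicate 2.

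The spread between mutant replicates was wider than the technical spread. The SD between arrays of 1 biological replicate, pooled over the 6 replicates, was 0.0877 for *dgt4*, 0.0493 for *dgt6* and 0.105 for *msd5* (log2). Between biological replicates, pooled over both genotypes, the SD was 0.164, 0.142 and 0.168 for the same transcripts. Nearly all of that came from the mutant, whose SD was 3.38 times that of the control in *dgt4*, 5.29 times in *dgt6* and 6.31 times in *msd5*. Mutant replicates were also more variable elsewhere, with a larger SD in the mutant than in the control in 74.8% of the 9295 transcripts and medians of 0.107 and 0.0651. Ranked among those transcripts, the mutant SDs of the 3 subunits stood at the 83.2, 78.8 and 85.3 percentiles.

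Whether *dgt4* and *dgt6* passed the looser threshold depended on mutant replicate 3, among other settings. This replicate was the mutant replicate nearest to the control in both, so leaving it out could only enlarge their changes. Without it, their changes were -0.59 and -0.54 with adjusted p of 0.0131 and 0.0129, and 3 of the 3 subunits fell at an adjusted p under 0.05, a level that 3.31% of all tested transcripts reached as lower in that setting. With any other single replicate left out, *msd5* remained the only one of the 3 that fell, with adjusted p from 0.00504 to 0.0193 without a mutant replicate 1 or 2 and from 0.00268 to 0.0171 without a control replicate. Following this count over other settings was decided after the data had been seen. Transcripts too dim for a call also bore on the threshold. When they were left out before the adjustment, the adjusted p was 0.0469 for *dgt4* and 0.0403 for *dgt6*, while 6.37% of the transcripts kept were called lower at this threshold.

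**Figure D2:**
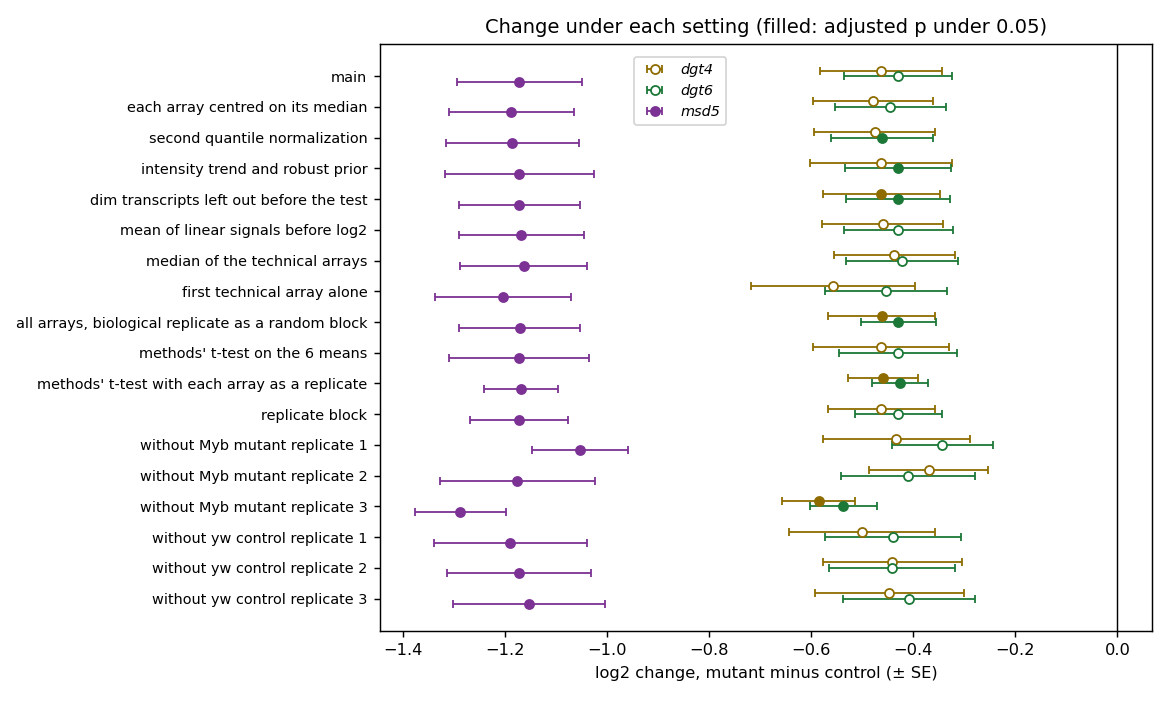
Log2 change (mutant minus control, ± SE) of *dgt4*, *dgt6* and *msd5* under the setting of the report ("main") and under each other setting that gives its own fit, 1 row per setting, with filled symbols where the adjusted p was under 0.05. Every symbol lies below 0, *msd5* is filled in every row and lies apart from the others, and *dgt4* and *dgt6* are both filled without mutant replicate 3, with dim transcripts left out, and where all technical arrays enter the fit together.

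Whether the subunits changed by unequal amounts was tested for the 3 possible pairs, on the difference of their log2 signals within each biological replicate. Only the shift of that difference between genotypes has a meaning, and an exact permutation test of 3 against 3 samples, two-sided, cannot give a p below 0.1. For *msd5* minus *dgt6* the difference was -2.81, -2.70 and -2.73 in mutant replicates 1 to 3 and -2.02, -1.98 and -2.01 in control replicates 1 to 3. The replicates of each genotype lay close together, and the shift was -0.74 (SE 0.04, exact p = 0.1, adjusted over the 3 pairs 0.15). For *msd5* minus *dgt4* the shift was -0.71 (SE 0.11, exact p = 0.1, adjusted 0.15), with mutant values of -0.92, -0.55 and -0.75 and control values of 0.01, -0.08 and -0.02. For *dgt6* minus *dgt4* the shift was 0.03 (SE 0.08, exact p = 0.9, adjusted 0.9), and the values of the genotypes overlapped. Although *msd5* and *dgt6* spread over 0.47 and 0.39 (log2) across the mutant replicates, their difference spread over less than either. The same held for each of the other pairs, and how often it holds for other transcripts was not counted.

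Of the 8 augmin subunits, 5 had a transcript that could be identified by gene. The other identified ones were *dgt3* (FBtr0273414, FBgn0034569, chromosome arm 2R) and *dgt5* (FBtr0087948, FBgn0033740, chromosome arm 2R). No transcript was identified here for *dgt2*, *msd1* or *wac*. The mean of all 5 was lower in the mutant, 3 of the 5 fell at an adjusted p under 0.05 and 0 were called at 0.001. All 5 are in the cell cycle list of the study taken up below, which was chosen in part on these arrays. Their shared direction is therefore not independent evidence. Their median log2 change was -0.46, against -0.01 over all tested transcripts. The median of the identified transcripts was not computed, and 45.4% of them had a lower mean in the mutant. Transcripts were identified through a ranking of these arrays by p-value, so the identified members of this and every other list are not a neutral sample of it. Called lower at an adjusted p under 0.05 were 24.7% of all 1999 identified transcripts, against 2.98% of all tested ones, and counts of list members are to be read against the former.

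*dgt3* resembled *dgt4* and *dgt6* in its replicates. It read 1276, 1266 and 1534 in mutant replicates 1 to 3 and 1859, 1911 and 1825 in control replicates 1 to 3. Its change was -0.46 (SE 0.09, adjusted p = 0.0298), 72.6% of the control level, so it fell under the looser threshold with the same estimate as *dgt4* and a smaller error. Mutant replicate 3 was again the highest, at 82.2% of the control mean against 68.4% and 67.9% for replicates 1 and 2.

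*dgt5* did not share this order. It read 4036, 3993 and 4024 in mutant replicates 1 to 3, and 5069, 5292 and 4845 in control replicates 1 to 3. The 3 mutant replicates were within 0.02 of each other on the log2 scale, with an SD of 0.0080 that stood at the 0.667 percentile of the 9295 brighter transcripts and below the SD of 0.0574 between its technical arrays. Its change was -0.33 (SE 0.06, adjusted p = 0.022), or 79.3% of the control level.

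**Figure D3:**
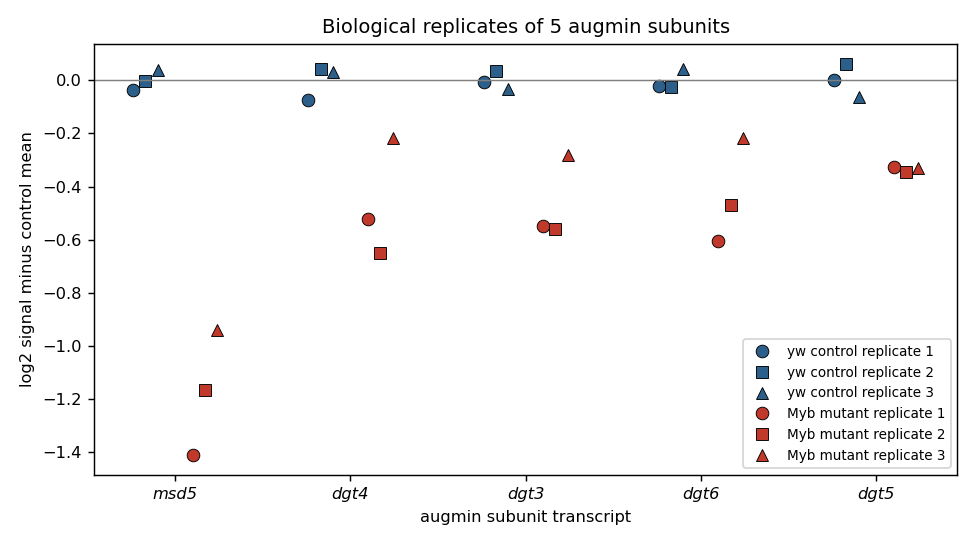
Log2 signal of each of the 6 biological replicates minus the control mean for the 5 identified augmin subunits, ordered by their mean change, with *yw* control in blue, *Myb* mutant in red and the replicate number shown by the symbol (circle 1, square 2, triangle 3). The red triangle, mutant replicate 3, is nearest to 0 in *msd5*, *dgt4*, *dgt3* and *dgt6*, and the 3 mutant symbols of *dgt5* lie together near -0.33.

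The complex that augmin recruits could hardly be followed. Of 9 genes of the gamma-tubulin ring complex, 1 was identified, the maternal gamma-tubulin *gammaTub37C* (FBtr0081228). Mutant and control means, 117 and 82.4, were both far under the signal minimum, and its change was 0.51 (SE 0.10).

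Other genes of spindle assembly were identified for 10 of 23 listed genes. Most of these 10, *aurA*, *asp*, *pav* and *Klp61F* among them, are also in the cell cycle list of the study taken up below. That list was chosen in part on these arrays, so the direction of the shared genes is not independent evidence. The mean was lower in the mutant in 9 of the 10, 5 fell at an adjusted p under 0.05 and 0 rose, with a median change of -0.29, where 24.7% of all identified transcripts fell and 45.4% had a lower mean. *aurA*, the Aurora A kinase that drives centrosome maturation, was the only one called at 0.001, with a change of -1.11 (SE 0.08, adjusted p = 0.000415). *asp*, a protein of microtubule minus ends at spindle poles, changed by -0.57 (adjusted p = 0.00409), and *pav*, a kinesin of the central spindle, by -0.41 (adjusted p = 0.0133). *Klp61F*, the kinesin that pushes spindle poles apart, changed by -0.35 (adjusted p = 0.0218), and *tacc*, a centrosomal partner of a microtubule polymerase, by -0.34 (adjusted p = 0.025). The estimated changes of *dgt4* and *dgt6* were no smaller than those of *pav*, *Klp61F* and *tacc*, which fell, while the errors of the subunits were wider, 0.12 and 0.11 against 0.06 for each of these 3 genes.

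The 5 subunits belong to a list of 72 cell cycle genes of the study, of which 44 were identified. The study chose that list in part on these arrays, so its direction is not independent evidence. The mean was lower in the mutant in all 44, 31 fell at an adjusted p under 0.05, 4 were called at 0.001 (among all identified transcripts 24.7% and 5.15% were called lower at these thresholds), and the median change was -0.42 with a range of -1.51 to -0.11. From the lowest change upwards, *msd5* was at place 4, *dgt4* at 17, *dgt3* at 18, *dgt6* at 22 and *dgt5* at 32. Around *msd5* stood *cort*, a female germline activator of the anaphase-promoting complex (-1.51, adjusted p = 0.000538), *cmet*, a CENP-E-like kinetochore kinesin (-1.41, adjusted p = 0.000583), *Sse*, the fly separase (-1.14, adjusted p = 0.000406), and *aurA*. The mean signal of *cort* was 177 in the mutant and 505 in the control, so it met the signal minimum narrowly and through the control group alone. *spn-E*, a helicase of the germline piRNA pathway, had a change of -1.36 between mean signals of 48.7 and 125 that were both under the minimum. Mutant replicate 3 read highest in 28 of the 44 genes and the order 3, 2, 1 was seen in 24, *msd5* and *dgt6* among them.

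**Figure D4:**
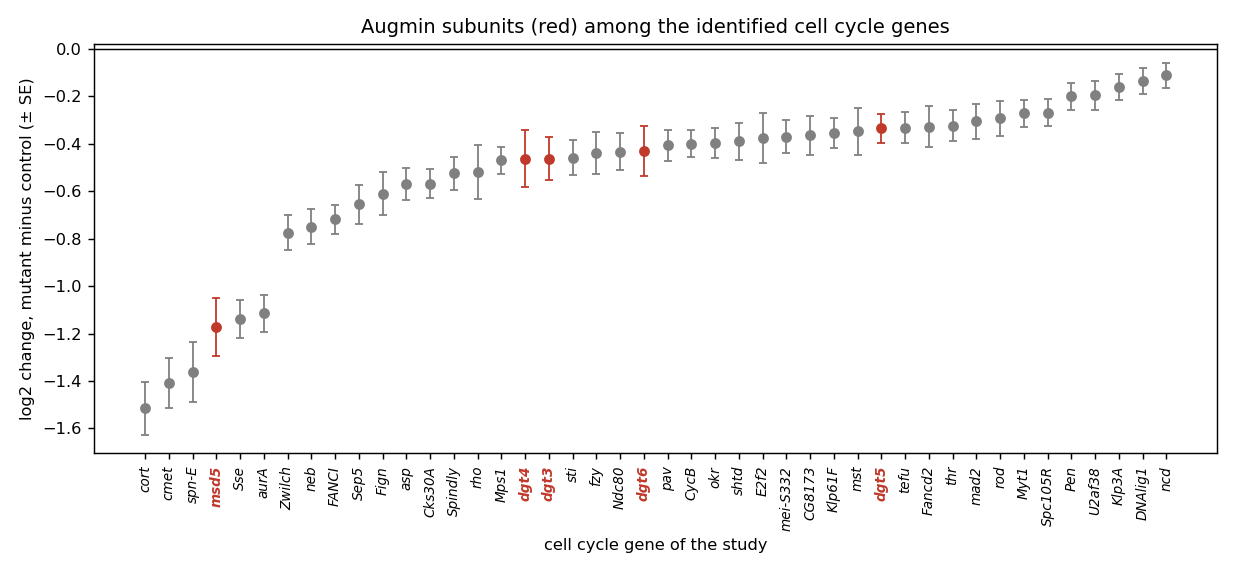
Log2 change (mutant minus control, ± SE, 3 biological replicates per genotype) of the 44 identified cell cycle genes of the study, ordered from the lowest, with the augmin subunits in red. *msd5* is at place 4 with -1.17, and the other 4 subunits lie between -0.46 and -0.33 in the middle of the row.

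Genes with the most similar profile over the 6 biological replicates were sought among 1749 identified genes, by the root mean square (RMS) difference of log2 signals after each transcript was centred on its mean. This is a description, and all points share the same 6 samples. For *dgt4* the nearest were *CG31549* (RMS 0.0385), *phr*, which encodes a photolyase that repairs ultraviolet damage (0.0523), and *dgt3* (0.0606). For *dgt6* they were *phr* (0.0420), *Hsp23*, a small heat shock chaperone (0.0449), and *CG16734* (0.0457). The profile of *msd5* had no neighbour that close, with *CG9149* (0.0961), *CG15353* (0.0965) and *CG1265* (0.104) as the nearest. *dgt4* and *dgt6* differed from each other by an RMS of 0.0865, and *msd5* differed from them by 0.372 and 0.373. Among the 2 genes on each side of the members in annotation order, only *Ctl2*, a choline transporter-like gene beside *dgt6*, was identified, and its change of 0.21 (SE 0.07, adjusted p = 0.121) was not called. *msd1*, another augmin subunit, adjoins *msd5* in that order and had no identified transcript.

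RNA of other cell types moved with genotype in the same discs. Summed signals of 6 hemocyte (blood cell) markers were 2757, 2179 and 2419 in mutant replicates 1 to 3, against 22310 to 25839 in the control, and 5 of the 6 were called lower at 0.001, among them *Hml* (-4.12, adjusted p = 1.9e-05). For this and the following marker lists, 5.15% of all identified transcripts were called lower at 0.001 and 24.7% at an adjusted p under 0.05. Crystal cell markers summed to between 415 and 674 in the mutant and to between 19504 and 28222 in the control, and 3 of 3 fell. The hemocyte markers *Hml*, *srp* and *eater* and all 3 crystal cell markers met the signal minimum through the control group alone. Fat body markers summed to 49662, 37447 and 72096 in mutant replicates 1 to 3 and to between 3647 and 10167 in the control. Of these markers 5 of 5 rose at an adjusted p under 0.05, and *apolpp* met the signal minimum through the mutant group alone. Of all tested transcripts 3.43% rose, but the markers are to be read against the identified ones. Of the 1999 identified transcripts, 1062 were called in either direction at that threshold, and 494 of these were lower. The others rose, a share far above 3.43%. Mutant replicate 3, in which *msd5*, *dgt6* and *dgt4* read highest, also had the highest fat body sum. The same replicate had the lowest mutant sums of crystal cell, adult muscle precursor and trachea markers and the lowest *ct* signal. Among the controls, replicate 3 had the lowest fat body sum (3647), while *msd5* and *dgt6* read highest in it. Adult muscle precursor markers, 4 of 6 identified, summed to between 32992 and 38731 in the mutant and to between 43613 and 46328 in the control, and 2 of the 4 fell. Trachea markers, 2 of 3 identified, summed to between 9478 and 10332 in the mutant and to between 8172 and 9134 in the control, higher in the mutant. The larger part of that sum was *Gasp* (0.26, adjusted p = 0.0881), which was not called, while *btl*, with mean signals of 228 and 568, was called lower (-1.32, adjusted p = 0.000904). Of 9 markers of the disc epithelium itself only *ct* was identified, with a mutant signal of 5796, a control signal of 8140 and a change of -0.49 (SE 0.10, adjusted p = 0.0361). No marker in these lists was at 0, since the arrays report a signal for every transcript. The part of these cell types in the values of the augmin subunits was not tested.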

How the data were processed

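Wing disc RNA of 12 *Myb* mutant and 11 *yw* control samples was measured on NimbleGen one-colour expression arrays with random-primed, Cy3-labelled cDNA. The deposited table held linear signal intensity for every transcript and array, which the authors made in ArrayStar by RMA (background correction, quantile normalization and median polish). Quantile normalization gives all arrays one distribution, so every change is relative to the other transcripts. Replicate numbers follow the titles, although another description of the samples gives the control replicate with 3 arrays a different number. No 2 arrays held identical values (0 pairs). No source of the replicate RNA beyond the word biological is stated, so p-values measure the spread between these samples. Slides and scan dates were not used here.

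Of 21051 transcripts, 4414 read 14.158 on every array and were left out. Signals were converted to log2 and averaged within each biological replicate, and the 6 means were fitted with lmFit and eBayes (limma 3.58.1, R 4.3.3), two-sided, over 16637 transcripts. The threshold of 0.001 and the minimum of 500, reached by 9754 transcripts, follow the study's methods. The script was tested on simulated data.

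Gene symbols came from a supplementary sheet used for identity alone, which was at hand in part and held the 1999 transcripts (1768 genes) ranked first by p-value. Of the tested ones, 1984 (99.2%) belonged to a RefSeq gene (Release 6, used for names and gene order), and 1062 of the 1066 called transcripts (adjusted p under 0.05) carried a symbol.

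The members, gene lists and marker lists were chosen with earlier results of these data known. The genes named are the members, *Myb*, the identified augmin subunits, up to 6 genes with the largest change of each other list at an adjusted p under 0.05, the 2 genes on each side of a member, and the 3 genes nearest in profile. *spn-E* and the cell type markers named fall outside the signal minimum or this rule.

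Same-numbered mutant and control replicates deviated together, with correlations of their deviations from the group means of 0.20, 0.18 and 0.28 for replicates 1 to 3 over all tested transcripts, and of 0.19, 0.38 and 0.55 over the 9295 brighter ones. The numbers come from the titles, and what replicates of one number share is not stated. Alternatives were other scalings, thresholds and summaries of the technical arrays, the methods' t-test, a fit of all arrays with biological replicates as random blocks (duplicateCorrelation 0.62, statmod 1.5.0), the replicate number as a block, and each replicate left out.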

Additional observations from a re-analysis of the deposited data

How the results depend on the processing

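The log2 changes of *dgt4*, *dgt6* and *msd5* were below 0 under each of 19 alternatives, of which 13 could move the change and the others only its error, adjustment or threshold. Leaving out 1 replicate gave -0.59 to -0.37 for *dgt4*, -0.54 to -0.34 for *dgt6* and -1.29 to -1.05 for *msd5*. Over all alternatives the adjusted p ranged from 9.58e-06 to 0.219 for *dgt4*, from 1.39e-06 to 0.224 for *dgt6* and from 1.10e-11 to 0.0287 for *msd5*. Of the 3, 0 were called at 0.001, against 1 (*msd5*, -1.17) at an adjusted p under 0.05, 2 (*dgt6* -0.43, *msd5* -1.17) with all arrays and a random block, and 3 (*dgt4* -0.46, *dgt6* -0.43, *msd5* -1.17) by the methods' t-test on single arrays. The last setting counts technical arrays as independent samples. On the 6 means the methods' t-test called 0, with adjusted p of 0.170, 0.151 and 0.0287. The count that fell at an adjusted p under 0.05, followed over alternatives chosen after seeing the data, was 1, where 2.98% of all tested transcripts were called lower. It was 2 with a second quantile normalization (3.14% of all) or with an intensity trend and robust prior (3.59%), and 3 with dim transcripts left out before the test (6.37% of those kept), with all arrays and a random block (6.71%) or with single arrays as replicates (14.2%). Leaving out 1 replicate gave 1 to 3, the 3 without mutant replicate 3 (3.31%). The replicate block left the changes at -0.46, -0.43 and -1.17, with adjusted p of 0.0869, 0.0673 and 0.00935, and changed no call.

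Leaving out 1 replicate gave -0.77 to -0.71 for *msd5* minus *dgt6* and -0.81 to -0.62 for *msd5* minus *dgt4*. For *dgt6* minus *dgt4* it gave -0.040 to 0.090, and the sign turned without mutant replicate 2 (-0.040) and without control replicate 2 (-0.00073). The cause was not tested. The precision was limited by the 3 replicates per genotype, with mutant SDs of 0.20 to 0.23 (log2) and standard errors of 0.11 to 0.12 for the 3 subunits. The mutant signal of *msd5* was under 500 on all 12 arrays, and no detection flags were analysed.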
